A study of Mus musculus with 36 samples.

Results

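Callus of wild type (WT) mice on day 7 (D7) after femoral fracture was compared with WT callus on day 3 (D3) on 6 arrays, 3 for each day, out of 36 arrays in the whole series. The WT D7 and WT D3 mice were male C57BL/6N, 8 weeks of age, with a pinned femoral fracture, and per the labels the groups differed in the day of tissue collection. RAG1-/- mice of the same strain, sex and age, which lack mature T and B cells, were collected on D7 and D3 as well and are used here for 1 comparison of changes. Each group was 1 pool of RNA from 5 mice, and the 3 arrays of a group were repeat measurements of that pool, so that every p-value measures the spread between arrays and not the spread between mice. The tissue was callus with a rim of adjoining bone, and in such bulk tissue fewer cells of a type and less RNA per cell cannot be told apart.

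Between these days a mouse fracture normally passes out of the acute inflammatory stage, in which a hematoma with neutrophils and macrophages fills the gap, into the building of a soft callus. Fibroblasts and periosteal progenitors lay down collagen, chondrocytes make a cartilage template, and osteoblasts form woven bone along the periosteum. Proteases that open up the matrix, such as the matrix metalloproteinases and urokinase, and lysosomal enzymes of macrophages and osteoclasts take part in this remodeling.

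Values are log2 intensities of the arrays, and 10291 genes were tested with limma. With a spread prior common to all genes, 1 gene was higher on D7 than on D3 (0.00972% of the genes tested) and none was lower (0%), while 772 genes had an unadjusted p under 0.05, of which 357 were higher and 415 lower. With a prior that lets the spread depend on the level, 73 genes were higher on D7 (0.709%) and 64 were lower (0.622%) at an adjusted p under 0.05. After each array was centred on its median this second split was 110 higher and 35 lower. The 136 genes that passed only with the level-dependent prior had adjusted p-values between 0.21 and 0.719 with the common prior, and 20 of the 137 passed when the tested probes of a gene were averaged. Only 45 of the 137 had more than 1 tested probe. For the others averaging left the values unchanged, and a lost call came from the refitted prior and adjustment. Those of the 136 genes that are named here were picked after their values were seen, and a level-dependent adjusted p is marked as such.

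The spread between arrays of the same pool was wide. WT D7 arrays correlated with each other at r = 0.885 to 0.906, WT D3 arrays at r = 0.904 to 0.917, and WT D7 with WT D3 arrays at r = 0.88 to 0.908, so that arrays of different days resembled each other about as much as arrays of the same pool. In RAG1-/- callus the same figures were 0.991 to 0.992 within D7, 0.983 to 0.989 within D3 and 0.977 to 0.985 between the days. The WT D7 and D3 arrays also stood apart from the rest of the series, at 81.8 to 88 on a first principal component that held 38.5% of the variance, against -33.9 to 15.2 for all other arrays, and they correlated with the other WT arrays at only 0.8 to 0.873. It was widest for dim genes. For the 5968 genes with a mean below 6 the median SD within a WT group was 0.64, against 0.19 in RAG1-/-, and for the 686 genes above 10 it was 0.12 in WT and 0.1 in RAG1-/-. The 95% interval of a WT difference accordingly had a median half-width of 1.17 below 6 and of 0.21 above 10 with the level-dependent prior, and no gene below a mean of 6 was among its 137 calls.

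**Figure D1:**
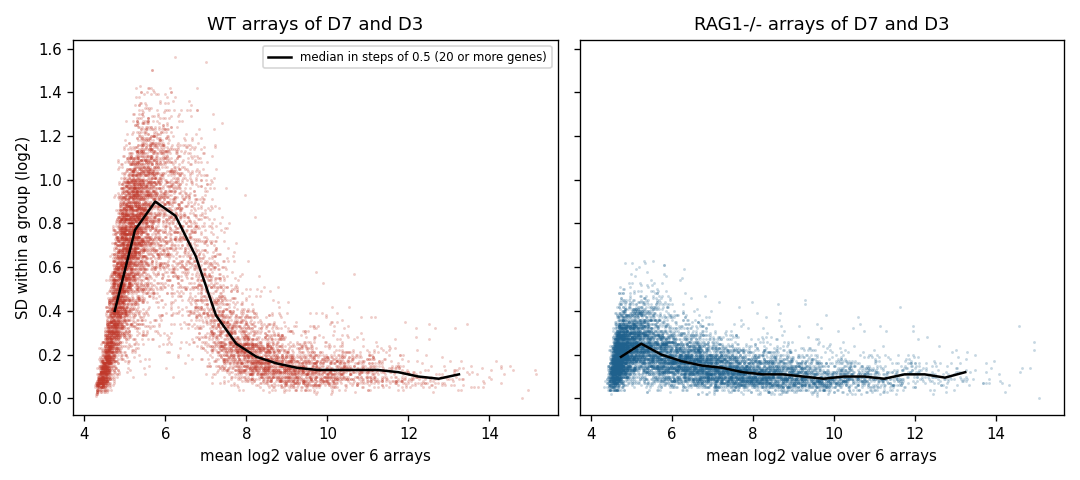
SD within a group (vertical axis, log2) of each tested gene against its mean log2 value over 6 arrays (horizontal axis), for the WT arrays (left) and the RAG1-/- arrays (right) of D7 and D3, with the median in steps of level as a line. WT genes with a mean of about 6 spread widely, with a median SD of 0.64 below 6, while genes above 10 have a median SD of 0.12 in WT.

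Sphingomyelin synthase 1 (given on the array as Tmem23, current symbol Sgms1), the Golgi enzyme that makes sphingomyelin from ceramide, was the gene that passed with both priors. Its log2 values were 7.32, 7.39 and 7.56 on the WT D7 arrays, against 4.5, 4.54 and 4.8 on the WT D3 arrays. All D7 arrays lay well above all D3 arrays, and the D3 values were at the floor of the array, whose lowest value was 4.17. A D3 level under the floor cannot be read. Dim genes also scattered widely within a WT pool, as Trp53 did with 6.97, 4.38 and 4.32 on D7. The size of the Tmem23 difference is therefore not settled. As fitted with the common prior it was 2.81 (SE 0.17, 95% interval 2.4 to 3.23, adjusted p = 0.0484). With the level-dependent prior the SE was 0.72 (95% interval 1.38 to 4.24, adjusted p = 0.0243). Tmem23 missed the threshold of the common prior when any 1 of the 6 arrays was left out. With the level-dependent prior it passed in 2 of these 6 fits. In RAG1-/- callus Tmem23 averaged 6.76 ± 0.21 on D7 and 7.1 ± 0.31 on D3 (SD, n = 3 arrays each), so that WT D3 had the lowest values of these groups. Since the WT D7 and D3 arrays stood apart from all others, levels of WT and RAG1-/- are not directly comparable.

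Among the 137 genes called with the level-dependent prior, the 73 higher ones had a median difference of 0.71 and the 64 lower ones a median of -0.48, and 13 rose and 5 fell by more than 2-fold. For 136 of them the D7 arrays lay wholly on one side of the D3 arrays, the exception being the osteocalcin gene Bglap2. Over all genes tested, 6.93% had every D7 array above every D3 array and 8.87% had every D7 array below. Array 3 of D7 was the highest D7 array for 49 of the 73 higher genes and the lowest D7 array for 47 of the 64 lower ones, and without this array 51 genes were higher and 44 lower. With any 1 array left out, 40 of the 137 passed each time. Among these, 17 also passed with averaged probes, with no filter and with centred arrays. All 137 passed with array weights and with a replicate block, so those settings did not narrow the set. The 17 include Pik3r1, Satb1, Col1a2, Ctsb, Prf1, Egr1, Oma1 and Golim4, which were higher on D7, and Alpk3, Cd276, Akap8l, Suv420h2, Sepw1, Eif3f and Mrps24, which were lower.

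**Figure D2:**
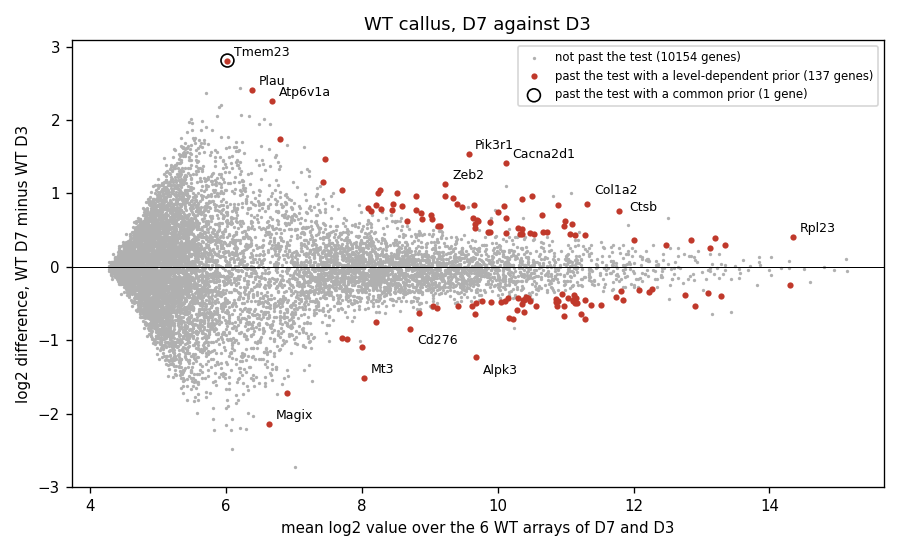
Difference between WT D7 and WT D3 (vertical axis, log2, D7 minus D3) against the mean log2 value over the 6 WT arrays (horizontal axis) for 10291 genes. Red points are the 137 genes past limma's test with the level-dependent prior and the ring marks Tmem23, the only gene past it with the common prior. Below a mean of 6 no difference passes, however large, and between 6 and 8 few do (7 higher and 4 lower), Tmem23, Plau and Magix among them. Differences of 0.3 to 0.8 pass among the bright genes on the right.

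The matrix genes did not move as a block, and a few bright ones stood out. Col1a2, which encodes the second chain of type I collagen, had log2 values of 11.54, 11.69 and 12.03 in WT D7 callus, against 10.94, 10.66 and 11.09 in WT D3 callus. Every D7 array was higher than every D3 array, and the difference was 0.85 (SE 0.11, 95% interval 0.63 to 1.08, level-dependent adjusted p = 7.24e-06, common-prior adjusted p = 0.457). Its partner Col1a1, the first chain of the same collagen, ran the other way, with 9.93, 10.04 and 10.11 on D7 and 10.45, 10.35 and 10.26 on D3. Here all D7 arrays were below all D3 arrays, but the difference of -0.33 did not pass with either prior (level-dependent adjusted p = 0.217). Col16a1, a fibril-associated collagen, was higher on D7 with a mean of 11.25, against 10.69 on D3 (difference 0.56, level-dependent adjusted p = 0.000521). No other of the 19 collagen genes tested passed, and the median difference of the list was -0.02, against -0.03 over all genes.

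Of 25 matrix proteases and inhibitors tested, 3 were higher on D7 with the level-dependent prior and none was lower. Over all genes the shares were 0.709% higher and 0.622% lower, but such shares rose with level. Of 686 genes above a mean of 10, 32 were higher and 46 lower, and of 5968 below 6, 0 in both directions. Of the 25, 12 lay above a mean of 8. Mmp14, the membrane-bound metalloproteinase that cleaves fibrillar collagen and activates gelatinase A, had values of 10.56, 10.53 and 10.61 on D7, against 9.98, 9.98 and 10.16 on D3. The groups were tight and did not overlap, with a difference of 0.53 (SE 0.11, level-dependent adjusted p = 0.00379). Plau, which encodes urokinase, the activator of plasminogen, had values of 7.7, 7.58 and 7.46 on D7, against 4.5, 5.23 and 5.8 on D3. The D3 arrays of Plau were dim and scattered, and its difference of 2.41 (SE 0.63) had a level-dependent adjusted p of 0.0275. The third member was the lysosomal protease cathepsin B (Ctsb), with 11.98, 12.05 and 12.48 on D7, against 11.47, 11.33 and 11.43 on D3. Its difference was 0.76 (SE 0.1, 95% interval 0.56 to 0.96, level-dependent adjusted p = 1.97e-06). Averaged over the 25 tested proteases and inhibitors, the D7 arrays ran from 8.1 to 8.34 and the D3 arrays from 7.88 to 7.92. The list median was 0.15, against -0.03 over all genes. Such a gap was not particular to this list. The Wnt list, which held no call, averaged 5.61 to 5.71 on D7 arrays and 5.45 to 5.54 on D3 arrays. Mmp13, the collagenase of hypertrophic cartilage and osteoblasts, had 13.83, 13.87 and 14.01 on D7 and 13.72, 13.83 and 13.78 on D3, with a difference of 0.13 that did not pass (level-dependent adjusted p = 0.538). Mmp9, the gelatinase of osteoclasts and neutrophils, likewise lay at 11.48, 11.52 and 11.85 on D7 and 11.63, 11.57 and 11.54 on D3, with overlapping arrays.

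Of 37 proteoglycan and glycoprotein genes tested, 1 was higher and 1 lower. Decorin (Dcn), a small proteoglycan that binds collagen fibrils, averaged 12.63 on D7 and 12.33 on D3 (difference 0.3, level-dependent adjusted p = 0.0419), although a second Dcn probe gave -0.11. Connective tissue growth factor (Ctgf) had values of 11.59, 11.73 and 11.64 on D7, against 11.94, 12.09 and 11.93 on D3, and fell by 0.33 (level-dependent adjusted p = 0.0353, and 0.312 once arrays were centred). Igfbp4, a binding protein that holds insulin-like growth factors back from their receptor, had values of 10.88, 11.11 and 10.67 on D7, against 11.36, 11.32 and 11.33 on D3. It fell by 0.45 (level-dependent adjusted p = 0.00726, 0.0633 once arrays were centred, and 0.598 with the probes averaged). Igfbp4 was the only one of 25 growth factor genes of its list to pass. Pi16, a marker of adventitial fibroblasts, fell by 0.43 (10.95, 11.05 and 10.8 on D7, against 11.38, 11.32 and 11.39 on D3, level-dependent adjusted p = 0.00733, and 0.0888 once arrays were centred). Furin, the convertase that activates many growth factors and metalloproteinases, was at 9.97, 10.37 and 9.94 on D7, against 10.68, 10.5 and 10.64 on D3 (difference -0.51, level-dependent adjusted p = 0.00733), while its second probe gave 0.27.

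The bone and cartilage lists each held 1 call. Bglap2, an osteocalcin gene of mature osteoblasts, averaged 13.49 on D7 and 13.2 on D3 (difference 0.29, level-dependent adjusted p = 0.022), but one D3 array equalled a D7 array at 13.42. Its near-identical neighbour Bglap1 had the opposite sign, at 10.96 on D7 and 11.23 on D3 (difference -0.26, level-dependent adjusted p = 0.298), and probes of this pair may share transcripts. Matn4, a matrilin that links filaments of the cartilage matrix, had values of 10.52, 10.38 and 10.46 on D7, against 9.68, 9.95 and 9.72 on D3. The D7 arrays were clearly higher, with a difference of 0.67 (SE 0.12, level-dependent adjusted p = 0.000224) and a second probe at 0.45, but it did not pass with the probes averaged (adjusted p = 0.625). The defining genes of cartilage were near the floor or scattered. Aggrecan (Acan) averaged 4.28 on D7 and 4.35 on D3, Col9a2 had 4.34, 4.32 and 4.35 on D7 and 4.26, 4.35 and 4.47 on D3, and Col2a1 scattered between 4.66 and 7.07 on D7 and between 6.19 and 7.0 on D3. Osteoblast genes gave high values on both days. Bone sialoprotein (Ibsp) averaged 12.48 on D7 and 12.39 on D3, and Sp7, the osteoblast transcription factor osterix, averaged 11.82 on D7 and 11.9 on D3, neither past the test. Osteopontin (Spp1) averaged 10.89 on D7 and 10.41 on D3, and cathepsin K (Ctsk), the collagen-degrading protease of osteoclasts, 11.8 on D7 and 11.53 on D3, also without passing.

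Some further lysosomal genes were high on D7 beside Ctsb. Lamp2, a glycoprotein of the lysosomal membrane, had values of 11.03, 11.32 and 11.59 on D7, against 10.32, 10.68 and 10.41 on D3 (difference 0.84, level-dependent adjusted p = 7.47e-06). Its second probe gave 0.91 (level-dependent adjusted p = 1.63e-06), but with the probes averaged Lamp2 did not pass (adjusted p = 0.393). Cathepsin Z (Ctsz), a lysosomal carboxypeptidase, had 9.46, 9.54 and 10.13 on D7, against 8.89, 8.41 and 8.95 on D3 (difference 0.96, level-dependent adjusted p = 0.000229), and its second probe gave 0.48, though with the probes averaged Ctsz did not pass (adjusted p = 0.17). Atp6v1a, the catalytic subunit of the proton pump that acidifies lysosomes and the osteoclast's resorption pit, was at 7.63, 7.69 and 8.1 on D7, against 6.42, 4.69 and 5.53 on D3, a difference of 2.26 (SE 0.53, level-dependent adjusted p = 0.00976) with dim and scattered D3 arrays.

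Several genes of signalling and transcription were higher on D7. Pik3r1, the regulatory subunit p85 alpha of phosphoinositide 3-kinase, had values of 10.2, 10.46 and 10.35 on D7, against 9.33, 8.5 and 8.59 on D3. The lowest D7 array was well above the highest D3 array, and the difference was 1.53 (SE 0.16, 95% interval 1.2 to 1.86, level-dependent adjusted p = 3.69e-07), with 1.6 at a second probe. Satb1, a chromatin organizer best known from thymocytes, had 10.75, 10.76 and 10.98 on D7, against 10.12, 9.62 and 9.95 on D3 (difference 0.93, level-dependent adjusted p = 3.69e-07). Zeb2, a zinc finger repressor of epithelial genes, had 9.49, 9.53 and 10.36 on D7, against 8.73, 8.68 and 8.58 on D3 (difference 1.13, level-dependent adjusted p = 5.82e-05). In each of these genes the days did not overlap. Cyclin D2 (Ccnd2), which drives entry into the cell cycle, was at 9.02, 9.07 and 8.94 on D7, against 8.35, 7.68 and 8.0 on D3, a difference of 1.0 (level-dependent adjusted p = 0.000306), and it was the only one of 41 replication and mitosis genes to pass. Cacna2d1, an auxiliary subunit of voltage-gated calcium channels that is abundant in muscle, had 10.99, 10.73 and 10.76 on D7, against 9.89, 8.93 and 9.4 on D3 (difference 1.42, level-dependent adjusted p = 0.000869). Ywhaz, an adaptor of the 14-3-3 family, had 10.66, 11.01 and 11.34 on D7, against 10.39, 10.11 and 10.37 on D3 (difference 0.71, level-dependent adjusted p = 0.00078). With the common prior the adjusted p of Cacna2d1 was 0.341 and that of Ywhaz 0.578.

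Immediate early genes split. Egr1, an early growth response transcription factor, had 11.13, 11.38 and 11.38 on D7, against 10.63, 10.71 and 10.68 on D3 (difference 0.62, level-dependent adjusted p = 4.07e-05), and Klf6 was higher by 0.65 (9.24, 9.49 and 9.32 on D7, against 8.87, 8.5 and 8.74 on D3, level-dependent adjusted p = 0.0117). Junb, a subunit of the AP-1 transcription factor, had 8.86, 8.89 and 8.7 on D7, against 9.35, 9.34 and 9.43 on D3, and fell by 0.56 (level-dependent adjusted p = 0.0352, and 0.12 once arrays were centred). These were the 3 calls among 27 immediate early and heat shock genes. Tsc22d3, a leucine zipper protein induced by glucocorticoids, had 9.69, 9.63 and 10.32 on D7, against 9.17, 8.96 and 9.04 on D3 (difference 0.82, level-dependent adjusted p = 0.000241). With the probes averaged Tsc22d3 did not pass (adjusted p = 0.657). Bhlhb2 (current symbol Bhlhe40), a repressor of the circadian clock, had 9.59, 9.89 and 10.45 on D7, against 9.1, 9.39 and 9.42 on D3 (difference 0.67, level-dependent adjusted p = 0.0232), and no other of 16 clock genes passed.

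Genes of skeletal muscle, which surrounds the femur, gave high values on both days, and a few were slightly higher on D7. Of 42 contractile and metabolic muscle genes tested, 3 were higher with the level-dependent prior, against 0.709% of all genes tested, and none was lower. The list is bright, with 32 of its 42 genes above a mean of 8, and bright genes were called more often. Over all genes, 32 of 686 above a mean of 10 were called higher, and 34 of 1571 between 8 and 10. Below 6 it was 0 of 5968. All D7 arrays lay above all D3 arrays for 23.8% of the list, against 6.93% of all genes and 14% of genes with a mean above 10. Tnni2, the inhibitory troponin of fast fibres, had 13.34, 13.26 and 13.58 on D7, against 12.91, 13.06 and 13.04 on D3 (difference 0.39, level-dependent adjusted p = 0.00047). Desmin (Des), the intermediate filament of muscle, had 11.65, 11.29 and 11.56 on D7, against 11.21, 11.01 and 11 on D3 (difference 0.43, level-dependent adjusted p = 0.00975). Tnnc2, the calcium-binding troponin of fast fibres, averaged 0.26 higher on D7 (level-dependent adjusted p = 0.0444), which did not pass once arrays were centred (adjusted p = 0.0706). Myl2 had every D7 array below every D3 array. The mean of the 42 genes ran from 10.08 to 10.23 on the D7 arrays and from 10.01 to 10.1 on the D3 arrays. Among members that did not pass, skeletal actin (Acta1) was at 14.09 on D7 and 13.96 on D3, the fast myosin light chain Myl1 was at 14.28 on D7 and 14.29 on D3, and parvalbumin (Pvalb), a calcium buffer of fast fibres, was at 14.93 on D7 and 14.97 on D3. Against these, Alpk3, an alpha kinase family protein of heart and skeletal muscle, had 8.69, 9.53 and 8.97 on D7, against 10.31, 10.16 and 10.42 on D3, and it fell by 1.23 (SE 0.15, level-dependent adjusted p = 2.7e-06). How much muscle each pool held was not tested.

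Few genes of the immune lists were called, as over all genes tested (1.33% in either direction with the level-dependent prior). A mean above 8 was reached by 1 of 22 monocyte and macrophage genes and 4 of 19 chemokine genes. It was reached by 6 of 16 neutrophil, 5 of 14 complement, 2 of 11 T and NK cell and 2 of 10 B-lineage genes. Below a mean of 6 no gene was called and the median half-width was 1.17. A list without calls was therefore not shown to stay level. Prf1, the pore-forming perforin of cytotoxic T and NK cells, had 9.98, 9.98 and 10.26 on D7, against 9.36, 9.05 and 9.28 on D3. The D7 arrays were all higher, by 0.84 on average (SE 0.13, level-dependent adjusted p = 2.25e-05), and it was the single call among 11 T and NK cell genes tested, whose mean ran from 5.74 to 6.39 on D7 arrays and from 5.75 to 6.22 on D3 arrays. Cd276 (B7-H3), a surface ligand that regulates T cells and is also made by osteoblasts, had 8.31, 8.22 and 8.31 on D7, against 9.12, 9.11 and 9.16 on D3. The arrays of each day were nearly identical, and Cd276 fell by 0.85 (SE 0.17, level-dependent adjusted p = 0.000791). Ifngr2, a chain of the interferon gamma receptor, was higher by 0.85 (8.69, 8.68 and 9.27 on D7, against 8.3, 8.0 and 7.8 on D3, level-dependent adjusted p = 0.00587), while its second probe gave 0.11. Without passing, the neutrophil gene S100a8 averaged 7.69 on D7 and 7.55 on D3, S100a9 averaged 10.2 on D7 and 10.08 on D3, the granule enzyme myeloperoxidase (Mpo) 10.56 on D7 and 10.87 on D3, and lactoferrin (Ltf) 12.71 on D7 and 12.88 on D3. None of 16 neutrophil, 22 monocyte and macrophage, 19 chemokine, 14 complement, 10 B-lineage, 24 erythroid or 13 megakaryocyte genes passed limma's test with either prior, and with the common prior 1 of the neutrophil, 4 of the macrophage, 1 of the complement and 0 of the chemokine, B-lineage, erythroid and megakaryocyte genes had an unadjusted p under 0.05. Erythroid genes gave high values on both days, with the red cell anion exchanger Slc4a1 at 15.1 on D7 and 15.17 on D3 and alpha globin (Hba-a1) at 14.5 on D7 and 14.53 on D3, whereas in RAG1-/- callus Slc4a1 averaged 7.85 on D7 and 7.3 on D3. How much of this gap between genotypes came with the difference between arrays given above was not tested.

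The lower genes were mostly bright, 46 of the 64 lying above a mean of 10. Akap8l, a nuclear RNA-binding anchor protein, had 10.94, 11.13 and 10.69 on D7, against 11.64, 11.54 and 11.73 on D3 (difference -0.71, level-dependent adjusted p = 2.7e-06). Suv420h2 (current symbol Kmt5c), a methyltransferase of histone H4 in heterochromatin, had 9.8, 10.09 and 9.74 on D7, against 10.64, 10.63 and 10.48 on D3 (difference -0.71, level-dependent adjusted p = 5.86e-05). Selenoprotein W (Sepw1, current symbol Selenow), a small protein abundant in muscle, had 10.62, 10.91 and 10.41 on D7, against 11.31, 11.27 and 11.36 on D3, and fell by 0.67 (level-dependent adjusted p = 2.25e-05). The translation factor subunit Eif3f fell by 0.54, with 10.79, 10.58 and 10.76 on D7, against 11.25, 11.21 and 11.28 on D3 (level-dependent adjusted p = 0.000507), and the mitochondrial ribosomal protein gene Mrps24 fell by 0.62, with a mean of 10.08 on D7, against 10.7 on D3 (level-dependent adjusted p = 0.000275). In all of these the D3 arrays lay close together and above every D7 array. Fzr1, an activator of the anaphase-promoting complex, fell by 0.53 to a mean of 12.63 on D7, against 13.16 on D3 (level-dependent adjusted p = 4.52e-06) with -0.08 at a second probe, and the beta tubulin Tubb5 fell by 0.45 to 11.63 on D7, against 12.08 on D3 (level-dependent adjusted p = 0.00078), though the second Tubb5 probe gave 0.24. Thymosin beta 10 (Tmsb10), which binds actin monomers, fell by 0.65 to 9.35 on D7, against 9.99 on D3 (level-dependent adjusted p = 0.00459). With the probes averaged Tmsb10 did not pass (adjusted p = 0.639). It also fell in RAG1-/- callus, by 1.08 (adjusted p = 0.00209).

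The 51 tested genes of cytosolic ribosomal proteins went both ways, around a list median of 0.01. Rpl23 had 14.53, 14.43 and 14.7 on D7, against 14.19, 14.19 and 14.07 on D3 (difference 0.4, level-dependent adjusted p = 1e-05). With the probes averaged Rpl23 did not pass (adjusted p = 0.737). Rps26 was lower by 0.36 (level-dependent adjusted p = 0.000877, and 0.058 once arrays were centred). Of 64 respiratory chain and ATP synthase genes 1 passed, a share close to the 1.33% over all genes. It was Sdhc, a membrane anchor of succinate dehydrogenase, at 10.6, 10.5 and 11.04 on D7, against 10.24, 10.24 and 10.28 on D3 (difference 0.46, level-dependent adjusted p = 0.0231). Of 45 genes of endoplasmic reticulum secretion and folding 1 passed as well, Cope, a coat protein of vesicles between Golgi and endoplasmic reticulum. It fell by 0.34 (level-dependent adjusted p = 0.0247, 0.191 once arrays were centred, and 0.853 with the probes averaged).

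**Figure D3:**
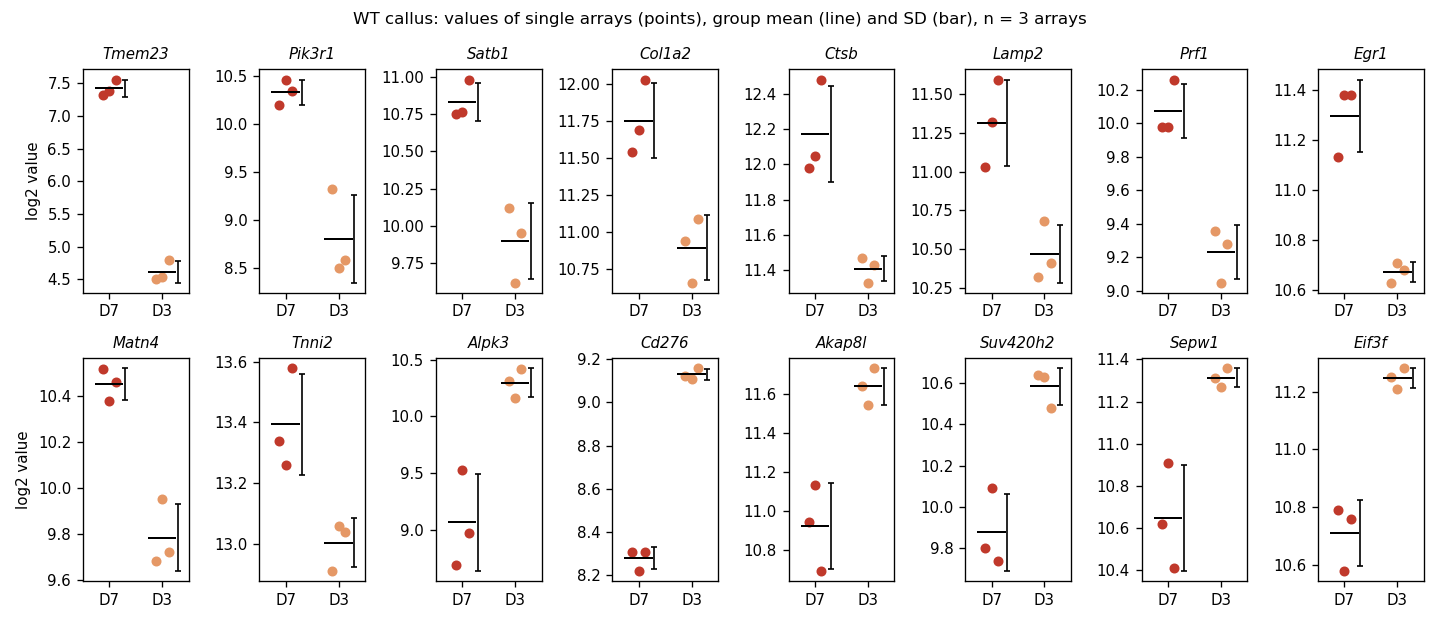
Log2 values of single WT arrays (points) with the mean (line) and SD (bar) of 3 arrays, D7 left and D3 right, for 16 genes, each panel with its own axis. The D7 and D3 arrays do not overlap in any panel, for example in Pik3r1 with 10.2 to 10.46 on D7 and 8.5 to 9.33 on D3, and in Cd276 with 8.22 to 8.31 on D7 and 9.11 to 9.16 on D3. All 16 genes were called on these same arrays, so the separation largely follows from the choice.

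Over the 37 gene lists, no member of any list was called in WT with the common prior, 17 lists had a member called with the level-dependent prior and 20 had none. List medians lay between -0.29, for complement, and 0.2. Where 2 probes of a gene could be set side by side, they had the same sign for 33 of 45 genes called with the level-dependent prior (73.3%), against 53.3% of all 2021 genes with several tested probes. Of the genes that the study discusses, 34 were tested, and Col1a2 and Bglap2 were called. The others included Cdkn1a, a cell cycle inhibitor, at 8.98 on D7 and 9.19 on D3, insulin-like growth factor 2 (Igf2) at 9.23 on D7 and 9.57 on D3, complement C4b at 8.96, 8.75 and 8.99 on D7 and 9.21, 9.22 and 9.13 on D3, and the osteoclast ligand RANKL (Tnfsf11) at 4.6, 6.83 and 6.22 on D7 and 4.36, 4.6 and 6.06 on D3. For Cdkn1a, Igf2 and C4b the D7 arrays all lay below the D3 arrays by small differences that did not pass, and the RANKL arrays overlapped.

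**Figure D4:**
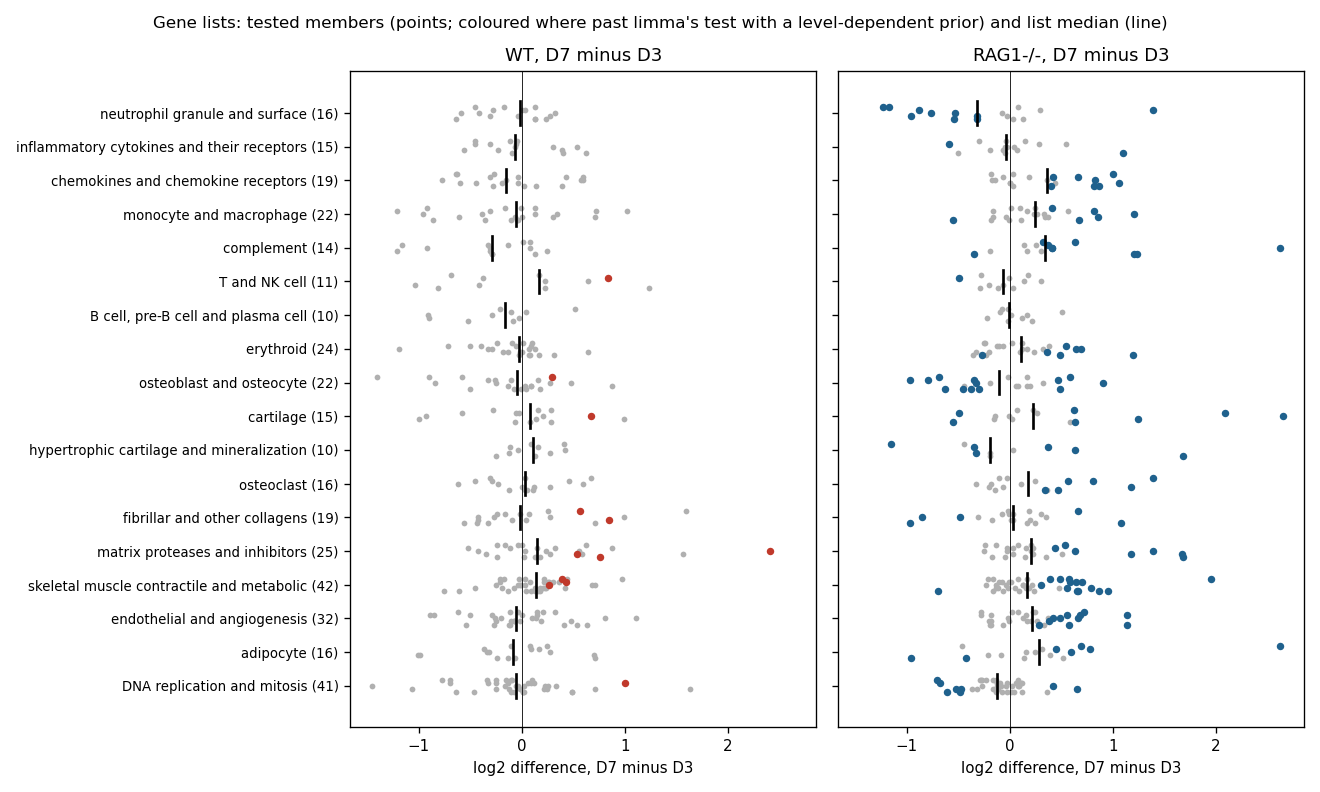
Log2 difference between D7 and D3 (horizontal axis, D7 minus D3) of each tested member of 18 gene lists (one per line, number of members in brackets) in WT callus (left) and RAG1-/- callus (right). Coloured points passed limma's test with the level-dependent prior and black lines are list medians. In WT most lists have no coloured point, and proteases have 3 of 25. No gene below a mean of 6 passed in WT, so dim lists could hold few coloured points.

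The same interval in RAG1-/- callus gave 615 genes higher (5.98%) and 544 lower (5.29%) with the common prior, on arrays with a median SD of 0.16 within a group, against 0.46 in WT. With the level-dependent prior RAG1-/- had 897 higher (8.72%) and 807 lower (7.84%). Of the 137 WT genes called with the level-dependent prior, 22 were called in RAG1-/- with the common prior. These were 16.1% of the WT genes and 1.9% of the 1159 RAG1-/- genes, and 15 of them had the same direction. This overlap sets unlike tests side by side. The overlap with the level-dependent prior in both genotypes was not counted. The change itself, WT minus RAG1-/-, was higher for 45 genes (0.437%) and lower for 97 (0.943%) at an adjusted p under 0.05 on 12 arrays. Among the 97 lower ones, 64 had a WT difference of less than 2-fold, and for 33 it was 2-fold or more. For 80 of the 109 genes that changed by more than 2-fold in RAG1-/-, the 95% interval of the WT difference with the level-dependent prior excluded the RAG1-/- value. These 109 were chosen for large RAG1-/- values, and the error of those values was left out, so the count leans toward exclusion. The same share over all genes was not counted, and no conclusion is drawn from it.

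Bright genes whose WT difference was small and whose RAG1-/- difference was large were found among adipose, matrix and muscle genes. Adipsin (Cfd), a complement factor made by fat cells, had 10.25, 10.04 and 9.99 in WT D7 callus and 9.99, 10.03 and 10.03 in WT D3 callus. In RAG1-/- callus it had 10.46, 10.4 and 10.51 on D7, against 7.53, 8.07 and 7.9 on D3, and the changes differed by -2.54 (adjusted p = 0.00067). Within RAG1-/- D3 stood low, while the WT values were level between the days. The WT D7 and D3 arrays stood apart from all other arrays. Levels of WT and RAG1-/-, here and below, are therefore not directly comparable. The collagenase Mmp13 showed a WT difference of 0.13 and a RAG1-/- difference of 1.68 (change -1.55, adjusted p = 0.00144), and Mmp9 a WT difference of 0.03 and a RAG1-/- difference of 1.39 (change -1.36, adjusted p = 0.0149). Mmp14 passed the level-dependent test in WT with 0.53, and its RAG1-/- difference of 1.67 was larger (change -1.14, adjusted p = 0.0179). Matn4 rose in both, by 0.67 in WT with the level-dependent prior and by 2.65 in RAG1-/- (change -1.98, adjusted p = 0.000804), and its D7 means were 10.45 in WT and 10.4 in RAG1-/-. Comp, a cartilage and tendon matrix protein, averaged 9.05 on D7 and 8.92 on D3 in WT, and 8.47 on D7 and 7.22 on D3 in RAG1-/- (change -1.11, adjusted p = 0.0415).

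In muscle, the slow myosin light chain Myl2 had 12.03, 11.95 and 11.9 in WT D7 and 12.09, 12.14 and 12.16 in WT D3, with RAG1-/- means of 11.28 on D7 and 9.32 on D3 (change -2.12, adjusted p = 0.000648). The perinatal myosin Myh8, which returns in regenerating fibres, averaged 9.38 on D7 and 9.55 on D3 in WT, and 11.91 on D7 and 10.5 on D3 in RAG1-/- (change -1.58, adjusted p = 0.00425). Claudin 5 (Cldn5), a tight junction protein of endothelium, averaged 9.34 on D7 and 9.6 on D3 in WT, and 8.56 on D7 and 7.43 on D3 in RAG1-/- (change -1.4, adjusted p = 0.00538). For C4b the changes differed by -1.53 (adjusted p = 0.00473), with -0.29 in WT and 1.24 in RAG1-/-. Prf1 had a larger change in WT, and its RAG1-/- means were 7.21 on D7 and 7.7 on D3 (change 1.34, adjusted p = 0.0434).

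Other genes with different changes were near the floor in WT. Col9a2, a cartilage collagen, had the WT values already given and averaged 8.21 on D7 and 6.13 on D3 in RAG1-/- (change -2.11, adjusted p = 0.000648), and Pcolce, an enhancer of collagen propeptide cleavage, averaged 4.31 on D7 and 4.42 on D3 in WT, and 8.05 on D7 and 9.19 on D3 in RAG1-/- (change 1.03, adjusted p = 0.0159). Interleukin 1 beta (Il1b), a cytokine of acute inflammation, averaged 4.37 on D7 and 4.46 on D3 in WT, and 6.24 on D7 and 5.14 on D3 in RAG1-/- (change -1.19, adjusted p = 0.0494). At the floor a fall cannot be read, and a WT difference near 0 there does not show that the transcript stayed level. Leaving out 1 array moved the counts of differing changes, to between 3 and 12 higher without a RAG1-/- array and to between 123 and 148 higher without a WT D7 array.

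**Figure D5:**
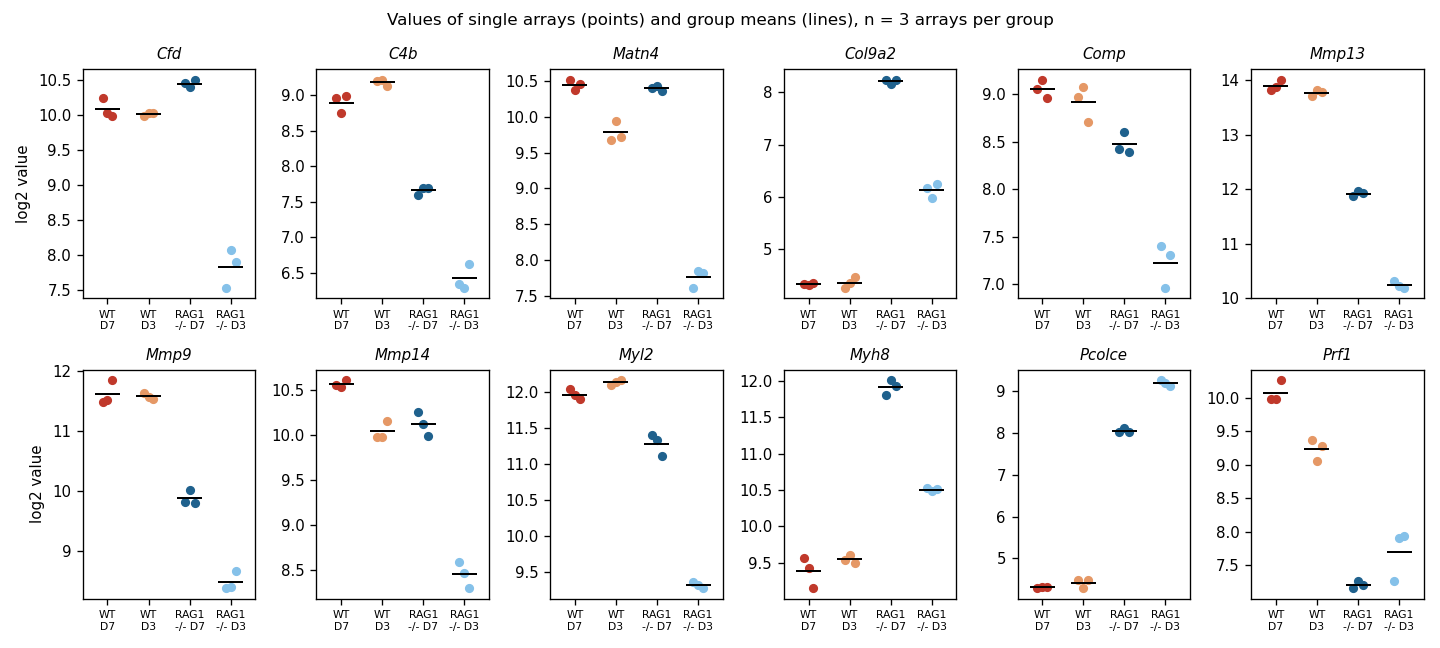
Log2 values of single arrays (points) and group means (lines, n = 3 arrays) for 12 genes in WT D7, WT D3, RAG1-/- D7 and RAG1-/- D3, each panel with its own axis. Cfd and Mmp13 are level in WT between the days, at 9.99 to 10.25 for Cfd on D7, and higher on D7 in RAG1-/-, while Prf1 is higher on D7 in WT and averages 7.21 on D7 and 7.7 on D3 in RAG1-/-.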

How the data were processed

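RNA of callus was measured on Illumina MouseRef-8 v2 BeadChips (25697 probes), in 12 pools of 5 mice run on 3 technical arrays each. Genotype, day and replicate came from the labels. The deposited values are log2 intensities that the authors pre-processed with beadarray and quantile normalized across arrays with lumi. Another 264 value columns, named by chip position and matched to no sample, were not used.

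The 6 WT arrays of D7 and D3 were fitted with limma 3.58.1 in R 4.3.3 (lmFit, eBayes, common prior), and p-values were adjusted by Benjamini-Hochberg over 10291 genes. Probes with a mean over all 36 arrays above 4.72, the median probe, entered (12848), and the brightest probe stood for a gene. Of the symbols, 8296 are current, 1552 were updated and 443 matched none. Genes were called at an adjusted p under 0.05. The level-dependent prior is the trend and robust option of eBayes. The difference between the changes of WT and RAG1-/- was fitted on 12 arrays.

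Members and the 37 gene lists were chosen with earlier results of these data known. Genes named were called genes with the largest differences, called and brightest uncalled members of each list, the genes the study discusses, the genes with the largest difference between genotypes, and genes whose probes disagree. Genes called only with the level-dependent prior, and several further list members, were named after their values were seen. Not every gene called is reported here. Alternatives covered the filter, the probe rule, the arrays in the fit, the methods' t-test, the prior, array weights, centring, the replicate number as a block, stricter limits and each array left out. The trend without the robust option was added after seeing the data. The fits were also run on simulated data with normally distributed noise, and the outcome is not reported here. Precision is limited by the number of arrays. Figures were drawn with matplotlib 3.10.9.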

Additional observations from a re-analysis of the deposited data

Results flagged for a closer look

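The change between D3 and D7 differed between genotypes by the largest fitted values (WT minus RAG1-/-, limma on 12 arrays) for the genes given here. Toward WT these were Tmem23 by 3.15 (adjusted p = 0.00067), Lrrc20 by 2.63 (adjusted p = 0.0137), Tdrd3 by 2.2 (adjusted p = 0.00245), Gtsf1l by 2.16 (adjusted p = 0.0177) and BC050811 by 2.06 (adjusted p = 0.0149). BC050811 owed its place to RAG1-/-, where it averaged 5.34 on D7 and 7.04 on D3. Tmem23, Lrrc20 and Gtsf1l were at the floor on WT D3 arrays (4.5, 4.54 and 4.8 for Tmem23, 4.62, 4.41 and 4.51 for Lrrc20, and 4.44, 4.54 and 4.59 for Gtsf1l), so that neither the size nor the order of their differences is settled. A second Lrrc20 probe gave a WT difference of 0.05.

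Toward RAG1-/- they were Magix by -2.87 (adjusted p = 0.0494), Cfd by -2.54 (adjusted p = 0.00067), Serpina3g by -2.53 (adjusted p = 0.00107), Tnxb by -2.44 (adjusted p = 0.00107), Atp6v1g2 by -2.41 (adjusted p = 0.00766) and Fmo2 by -2.41 (adjusted p = 0.0242). Serpina3g, a serine protease inhibitor of activated immune cells, had 4.64, 4.66 and 5.24 on WT D7 arrays and 7.3, 7.2 and 7.48 on WT D3 arrays, with RAG1-/- means of 6.03 on D7 and 5.98 on D3, and its WT difference of -2.48 did not pass on the WT arrays alone (level-dependent adjusted p = 0.0532). On WT D7 arrays Serpina3g and Tnxb (4.52, 4.86 and 4.65) were near the floor, which limits the difference that can be read. Magix had 5.0, 6.82 and 4.86 on WT D7 arrays and 7.78, 7.6 and 7.72 on WT D3 arrays. Of the 26 genes with a higher change and a WT difference over 2-fold, 25 had a WT D3 mean below 6, and of the 33 with a lower change and such a difference, 32 had a WT D7 mean below 6, where the SD between WT arrays was widest.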

How the results depend on the processing

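With the common prior, 1 gene was higher and 0 were lower on WT D7. No gene passed with the filter taken over the 6 WT arrays (0 higher), the methods' t-test, array weights, an adjusted p under 0.01 with over 2-fold, or any 1 array left out (0 to 0 in both directions), while the number of genes with an unadjusted p under 0.05 was 714 with that filter, 873 with the t-test, 781 with weights and 658 to 863 over the arrays left out. The second brightest probe gave 1 higher and 1 lower. A spread estimated over all 36 arrays gave 357 higher and 396 lower, and over the 18 WT arrays 32 higher and 26 lower. The level-dependent prior gave 73 and 64, and without its robust option 68 and 60.

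From those 73 and 64, the counts were 47 and 46 with no filter, 130 and 111 with the filter over the 6 WT arrays, 12 and 8 with the mean of probes, 16 and 3 with the second probe, 110 and 35 with arrays centred, and 7 and 2 with the stricter limits, and array weights gave 86 and 80. Leaving out 1 array gave 38 to 98 higher and 18 to 116 lower, the lowest without WT D3 replicate 3 and the highest without WT D7 replicate 2. Without WT D3 replicate 1 they were 68 and 30, without WT D3 replicate 2 43 and 24, and without WT D7 replicate 3 51 and 44. Of the 137 genes, 40 passed whichever array was left out, all 137 kept their sign, and 20 passed with the mean of probes. Only 45 of the 137 had a second tested probe, so for the others the refitted prior and adjustment moved the result, not another probe.

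The 45 higher and 97 lower changes between genotypes were 7 and 11 with the second probe, 124 and 196 with all 36 arrays in the fit, 88 and 211 with the level-dependent prior, 16 and 30 with array weights, 40 and 55 with centring, and 3 and 17 with the stricter limits. They ran from 3 to 148 higher and from 19 to 199 lower over the arrays left out, with 19 to 36 lower without any one RAG1-/- array, 146 to 199 lower without a WT D7 array, and 48 to 73 higher and 123 to 144 lower without a WT D3 array.

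The replicate numbers did not pair the arrays (correlation of same-numbered deviations -0.0215, -0.0339 and 0.00346). With the replicate block 0 genes were higher and 0 lower with the common prior, 130 and 106 with the level-dependent prior, and the change differed for 11 higher and 34 lower. A second probe had the opposite sign for some genes called with the level-dependent prior, since 33 of 45 had the same sign. Causes were not tested. Signal limits the dim genes, for which a WT difference under about 1.17 is within the interval below a mean of 6.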

Other observations

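Further genes called only with the level-dependent prior, picked after their values were seen, fall outside the lists. Oma1, a protease of the inner mitochondrial membrane, had 9.9, 9.73 and 9.85 on WT D7 arrays, against 9.06, 8.95 and 8.91 on WT D3 arrays (difference 0.85, adjusted p = 3.27e-05). Slc25a3, the mitochondrial phosphate carrier, had 8.26, 7.95 and 8.5 on D7, against 7.3, 7.36 and 6.9 on D3 (difference 1.05, adjusted p = 0.0232), whereas Slc25a28, a mitochondrial iron importer, fell by 0.52, with 10.93, 11.23 and 11.19 on D7, against 11.66, 11.56 and 11.7 on D3 (adjusted p = 0.000342). Golim4, a protein of the Golgi membrane, was higher by 0.96 (9.38, 9.11 and 9.33 on D7, against 8.53, 8.14 and 8.27 on D3, adjusted p = 9.93e-05). Clk4, a kinase of splicing factors, was higher by 0.58 (adjusted p = 0.000144, with 0.16 at a second probe), and the nuclear RNA-binding protein Hnrnpc fell by 0.64 (adjusted p = 0.000877). Of these genes none passed in RAG1-/- callus with either prior, where the difference was 0.17 for Oma1 and -0.11 for Slc25a3.

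Rag1, the gene disrupted in RAG1-/- mice, had 6.8, 4.66 and 4.51 on WT D7 arrays and 6.08, 5.57 and 4.61 on WT D3 arrays. On RAG1-/- arrays it had 4.9, 4.59 and 4.82 on D7 and 4.49, 4.7 and 4.45 on D3. Whether its probe lies in the disrupted part of the gene was not known from the labels.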
